A study of Homo sapiens with 6 samples.

Results

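Reads on 10 genes of the double-stranded RNA response were compared between K562 cells expressing a short hairpin RNA against lncRNA-IUR-5 and control cells. The genes were 4 that sense or act on double-stranded RNA (EIF2AK2, IFIH1, RIGI and ADAR), 5 interferon-induced effectors (ISG15, IFI6, IFITM1, IFITM2 and IFITM3) and the transcription factor subunit IRF9. They were selected by name for their roles in this pathway. The rule uses no measured value, but the genes were proposed with earlier results of these data known. The deposited table holds them on 21 of its 109018 protein accessions, and they are 10 of the 19049 genes to which an accession could be assigned. The reads of all accessions of a gene were summed.

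K562 is a human chronic myeloid leukaemia line that carries the BCR-ABL fusion. The 3 control libraries (sh-luc) came from K562 cells stably expressing a hairpin against luciferase, and the 3 knockdown libraries (sh-IUR-5, named sh-lncRNA-IIRX in the sample labels) from K562 cells stably expressing a hairpin against the lncRNA. Both hairpins were delivered by lentivirus in the pSIH-H1-GFP vector, so cells of both groups carried the vector, GFP and a hairpin, and cells with no hairpin were not compared. The study describes the RNA as coming from 3 independent groups of cells, no drug treatment is named, and libraries 2 and 3 of each group share a series number in their labels that library 1 does not. The sh-luc libraries held 21023739 to 23320543 reads on accessions and the sh-IUR-5 libraries 24325122 to 31481109. Each group is a stable line made with 1 hairpin, and the level of the lncRNA, which is not a protein accession, was not analysed here. The hairpin target is shown because the comparison rests on it. It matched the reference genome at 1 place, in an exon of the lncRNA-IUR gene.
sh-IUR-5 target (chr11:95232933-95232953, plus strand, hg38): gctagtatcaggtttaaatag

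Cells recognise double-stranded RNA as a mark of viral infection. RIGI and IFIH1 (MDA5) are cytoplasmic helicases that bind it and signal through the adaptor MAVS to induce interferon, EIF2AK2 (PKR) is a kinase that binds it and stops translation by phosphorylating eIF2, and ADAR edits adenosine to inosine in it, which keeps the cell's own RNA from being sensed. Secreted interferon acts through its receptors and JAK kinases on a transcription factor complex that contains IRF9 and binds interferon-stimulated response elements in the promoters of effector genes such as ISG15, IFI6 and the IFITM family, and of the sensors themselves. K562 cells are known to have lost the alpha and beta interferon genes.

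Letters of the response element are shown for the members whose promoter window holds them, because these members did not move together in the comparison below. In windows of 250 bases before to 50 bases after the RefSeq gene start (GRCh38.p14), the letters GAAANNGAA, searched on both strands with overlaps allowed, were found in 8.11% of 35116 windows. Of the 10 members, 9 had a window, and IFITM2 did not. The letters occurred in 6 of those 9, and in none of the windows of ADAR, RIGI and IRF9. Each stretch shows the run of nearby matches that held the most in its window, the first where runs were equal. The windows of IFIH1, IFI6 and IFITM1 hold 4, 3 and 2 matches in all, of which 3, 2 and 1 are shown. In these stretches the capitals mark the matches and run together where matches overlap.
EIF2AK2 (chr2:37156970-37156994, minus strand): tccaagggGAAAACGAAactgagaa
IFIH1 (chr2:162318820-162318856, minus strand): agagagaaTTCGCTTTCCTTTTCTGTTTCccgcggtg
ISG15 (chr1:1013376-1013412, plus strand): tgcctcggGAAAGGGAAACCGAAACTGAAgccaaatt
IFI6 (chr1:27672269-27672315, minus strand): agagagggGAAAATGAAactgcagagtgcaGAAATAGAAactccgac
IFITM1 (chr11:313992-314016, plus strand): aacagcagGAAATAGAAacttaaga
IFITM3 (chr11:320879-320920, minus strand): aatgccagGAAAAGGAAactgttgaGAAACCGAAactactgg
In ISG15 the first of 3 overlapping matches begins 113 bases and the last 101 bases before the RefSeq gene start. The gene coordinates given with the members below are those of GENCODE 44 (hg38). Their first base can differ from the RefSeq start, and the ISG15 gene begins further upstream there. The IFIH1 stretch also holds 3, on the opposite strand. The letters TTCNNNGAA of the STAT dimer site were in 7.66% of all windows, and among the members in those of IFITM1 and IRF9. A match describes the sequence and not binding in these cells. A member without a match may still have a response element of other letters or outside the window.

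All 10 members had enough reads to be judged by the limits set for this comparison, a mean of 10 reads a library and a mean of 1 RPKM (reads scaled to coding length and library size). On this per-length scale the members covered a wide range in sh-luc cells. IFITM1, which blocks entry of enveloped viruses at the cell surface, stood at 1231 ± 73.9 RPKM (SD, n = 3), IFITM3 at 257 ± 21.1 and ISG15 at 108 ± 5.36. The others lay at or below 13.6 RPKM, and the lowest was IFIH1 at 2.36 ± 0.033 RPKM. In the order of the sh-luc levels (IFITM1, IFITM3, ISG15, IFITM2, EIF2AK2, ADAR, IFI6, IRF9, RIGI, IFIH1), IFI6 and IRF9 were the only neighbours whose libraries overlapped. In sh-IUR-5 cells ADAR stood in place 4, above EIF2AK2 and IFITM2, and IFI6 in place 9. The neighbours IRF9 and RIGI, and IFI6 and IFIH1, overlapped there.

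Between the groups, 2 members were higher in sh-IUR-5 cells (ADAR and EIF2AK2), 5 were lower (all 5 effectors), and RIGI, IFIH1 and IRF9 did not pass the test. The test was edgeR's quasi-likelihood test over 10390 genes, with p-values adjusted by Benjamini and Hochberg's method and called under 0.05. Calls were common in this comparison: 47.8% of all genes tested were called, 24.9% higher and 22.9% lower. All 3 sh-IUR-5 libraries lay above all 3 sh-luc libraries in 29.5% of genes and below them in 27.2%. With about 1 gene in 2 called, 7 calls among 10 members is not a result about the members as a group, and the values of the single genes follow. Of the 6 members whose promoter window held the response element letters, 1 was higher (EIF2AK2), 4 lower and 1 not called (IFIH1). For each of the 7 the groups did not overlap on the TMM scale given below, on which the shares of separated genes were also taken. Their same-numbered pairs of libraries therefore all go in the same direction by necessity, which adds no support. With a term for the series number in the labels the same 7 were called, and RIGI was called higher as well (log2 fold change 0.22, edgeR adjusted p = 0.0445). Levels are given as CPM, the reads relative to the TMM-scaled library size, which sets the libraries to a common scale and does not correct for gene length.

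**Figure D1:**
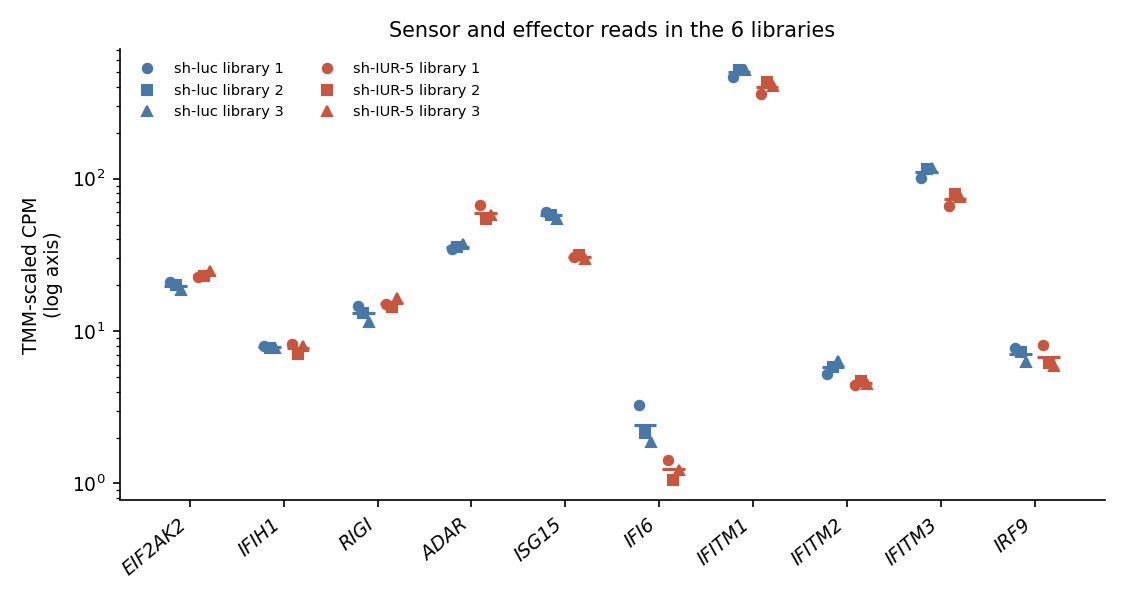
Reads of the 10 members in each library, as TMM-scaled CPM on a log axis; points are libraries and bars are group means (n = 3). The 3 red sh-IUR-5 libraries lie above the blue sh-luc libraries for ADAR and EIF2AK2, below them for ISG15, IFI6 and the 3 IFITM genes, and are not separated from them for IFIH1, RIGI and IRF9.

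ADAR (chr1:154581695-154628013, minus strand) was the member that rose most. Its CPM values were 34.4, 35.9 and 37.0 in sh-luc libraries 1, 2 and 3, against 66.8, 54.7 and 57.4 in sh-IUR-5 libraries 1, 2 and 3, from 705 to 2338 reads a library. The groups did not overlap, and each sh-IUR-5 library was above the highest sh-luc library. The log2 fold change was 0.74 ± 0.087 (SE; edgeR adjusted p = 5.88e-05), a 1.67-fold rise, and the exact two-sided permutation test gave p = 0.1, the smallest it can give for 3 libraries against 3. ADAR was called higher under all 21 alternative settings, with log2 fold changes between 0.51 and 0.95.

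The ADAR gene makes a long, interferon-inducible protein and a shorter constitutive one whose coding sequence lies within that of the long form. The table holds 4 long accessions (3546 to 3699 bases) and 3 short ones (2718 to 2796 bases). Each of the 7 was higher in sh-IUR-5 cells, with log2 fold changes from 0.64 to 0.83 in a fit of all 38204 accessions that reached the minimum level. The 7 share coding sequence, so they are not separate results. The mean RPKM of a long accession was 1.16, 1.05 and 1.26 times that of a short accession in sh-luc cells and 1.14, 1.08 and 1.10 times in sh-IUR-5 cells. These ratios overlapped between the groups. Reads from the stretch that the forms share cannot be assigned to either, so the ratios cannot decide whether the forms shifted.

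EIF2AK2 (chr2:37099210-37157522, minus strand), the eIF2 kinase PKR, showed a small rise. It was at 20.9, 19.99 and 18.7 CPM in sh-luc cells and at 22.6, 23.1 and 24.7 in the sh-IUR-5 libraries. The groups did not overlap, but the gap between the nearest libraries was smaller than the spread within sh-luc. The log2 fold change was 0.24 ± 0.086 (SE; edgeR adjusted p = 0.0362), a 1.18-fold difference with a 95% interval of the log2 value from 0.053 to 0.427. The call was lost without sh-luc library 2 (log2 fold change 0.25), sh-luc library 3 (0.20), sh-IUR-5 library 2 (0.25) or sh-IUR-5 library 3 (0.20), with edgeR adjusted p between 0.076 and 0.146, and in DESeq2 (0.23, adjusted p = 0.0871).

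RIGI and IFIH1, the cytoplasmic helicases, did not pass the test. RIGI was at 14.6, 13.2 and 11.4 CPM in sh-luc cells and at 15.1, 14.4 and 16.4 in sh-IUR-5 cells, where library 2 fell below sh-luc library 1. Its log2 fold change was 0.22 ± 0.109 (SE; edgeR adjusted p = 0.110), with a 95% interval from -0.01 to 0.46. RIGI was called higher in 5 of 21 alternatives. These were total reads in place of TMM (0.43, edgeR adjusted p = 0.00687), limma on log2(RPKM + 0.1) (0.43, adjusted p = 0.0162) and on log2(RPKM + 1) (0.37, adjusted p = 0.0157), the label series term, and the fit without sh-luc library 1 (0.31, edgeR adjusted p = 0.0479). With total reads the median of all genes tested was itself 0.22. IFIH1 lay between 7.73 and 7.93 CPM in sh-luc cells and at 8.23, 7.06 and 7.94 in sh-IUR-5 cells, where 2 libraries were above and 1 was below that range. Its log2 fold change was -0.01 ± 0.112 (SE; edgeR adjusted p = 0.948), with a 95% interval from -0.26 to 0.24, so changes of that size in either direction could not be told from none. RIGI had 226 to 527 reads a library and IFIH1 had 153 to 288.

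ISG15 (chr1:1001138-1014540, plus strand), a ubiquitin-like protein that is joined to other proteins during the interferon response, was lower in sh-IUR-5 cells. It was at 60.8, 58.2 and 54.4 CPM in sh-luc cells and at 30.6, 31.4 and 29.6 in the sh-IUR-5 libraries, from 776 to 1318 reads a library. The groups did not overlap, and the highest sh-IUR-5 library stood well below the lowest sh-luc library. The log2 fold change was -0.92 ± 0.075 (SE; edgeR adjusted p = 1.43e-05; exact permutation p = 0.1), which is 0.529 times the sh-luc level. ISG15 was called lower under all 21 alternatives, with log2 fold changes from -0.96 to -0.61.

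IFI6 (chr1:27666064-27672212, minus strand), a mitochondrial and endoplasmic reticulum protein with antiviral activity, had the fewest reads of the members, from 27 to 71 a library. It was at 3.27, 2.14 and 1.87 CPM in sh-luc cells and at 1.43, 1.05 and 1.22 in the sh-IUR-5 libraries. The groups did not overlap, and sh-luc library 1 stood above the other two control libraries. The log2 fold change was -0.97 ± 0.253 (SE; edgeR adjusted p = 0.00817), with a 95% interval from -1.52 to -0.41. Counting alone gives an error of 15.2% at its mean read number over the 6 libraries, so the size of the change is loosely set. IFI6 was called in 18 of 20 alternatives.

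The IFITM genes encode small membrane proteins that restrict virus entry, IFITM1 at the cell surface and IFITM2 and IFITM3 in endosomes. They lie side by side on chromosome 11. IFITM3 was at 101, 115 and 117 CPM in sh-luc cells and at 66.5, 79.8 and 75.3 in the sh-IUR-5 libraries, with no overlap. Its log2 fold change was -0.59 ± 0.088 (SE; edgeR adjusted p = 0.000255), and it was called lower under all 21 alternatives, with values from -0.65 to -0.27.

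IFITM1 fell less. It was at 467, 514 and 519 CPM in sh-luc cells and at 361, 431 and 408 in the sh-IUR-5 libraries. These did not overlap, with a log2 fold change of -0.32 ± 0.080 (SE; edgeR adjusted p = 0.00615). As RPKM, which is scaled to total reads, the values were 1148, 1253 and 1291 against 1063, 1201 and 1142, and the groups overlapped. With total reads in place of TMM the log2 fold change was -0.12 and did not pass (edgeR adjusted p = 0.164). IFITM2, at 113 to 154 reads a library, was at 5.21, 5.85 and 6.37 CPM in sh-luc cells and at 4.40, 4.72 and 4.51 in the sh-IUR-5 libraries. The log2 fold change was -0.35 ± 0.134 (SE; edgeR adjusted p = 0.0457). The call held in 5 of 21 alternatives. It was lost without sh-luc library 2 (-0.35) or 3 (-0.28) and without sh-IUR-5 library 1 (-0.33), 2 (-0.39) or 3 (-0.36), with edgeR adjusted p between 0.0737 and 0.157, and with total reads (-0.15, edgeR adjusted p = 0.391).

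The coding sequences of the 3 IFITM genes share a run of 99 identical bases, and IFITM1 and IFITM3 share 141. Of the 50-base stretches of the 378-base IFITM1 coding sequence, 29.8% occur unchanged in IFITM3, and of those of the 399-base IFITM2 coding sequence 14.3% occur in IFITM1 or IFITM3. How the authors counted a read that matched several genes is not given in the sources used here. With IFITM1 at 10098 to 12650 reads a library and IFITM2 at 113 to 154, the value of IFITM2 is therefore uncertain. How far IFITM1 reads enter the IFITM3 value is likewise not known. The stretches below are shown because a read inside their lower-case run names no gene. They cover the last 87 bases of the shared run and the 20 bases after it, in the second coding exon (hg38, transcripts of GENCODE 44). Capitals mark the 2 positions at which IFITM2 differs from IFITM1 and IFITM3. IFITM1 and IFITM3 are identical over the whole stretch, so a read within it cannot separate them.
IFITM1 (chr11:314922-315028, plus strand): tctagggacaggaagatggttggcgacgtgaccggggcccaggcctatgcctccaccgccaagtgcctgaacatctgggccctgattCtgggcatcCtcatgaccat
IFITM2 (chr11:309013-309119, plus strand): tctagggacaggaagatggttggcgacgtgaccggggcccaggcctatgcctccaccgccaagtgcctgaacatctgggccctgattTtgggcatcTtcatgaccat
IFITM3 (chr11:319884-319990, minus strand): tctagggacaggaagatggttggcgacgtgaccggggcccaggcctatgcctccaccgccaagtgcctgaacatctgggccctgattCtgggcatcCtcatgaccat

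IRF9 (chr14:24161234-24168043, plus strand), the DNA-binding subunit of the interferon-activated STAT complex, did not pass the test. It was at 7.79, 7.27 and 6.22 CPM in sh-luc cells and at 8.09, 6.17 and 5.88 in the sh-IUR-5 libraries. Library 1 was the highest of each group, sh-IUR-5 library 1 was above and libraries 2 and 3 were below the sh-luc range, and the groups were not separated. The log2 fold change was -0.07 ± 0.151 (SE; edgeR adjusted p = 0.716), with a 95% interval from -0.40 to 0.26, and it did not pass under any of 21 alternatives.

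Ratios of reads between members within a library do not depend on how libraries are scaled. ADAR had 0.566, 0.616 and 0.680 reads for each ISG15 read in sh-luc cells, against 2.18, 1.74 and 1.94 in sh-IUR-5 cells. EIF2AK2 had 0.344, 0.344 and 0.344 reads for each ISG15 read in sh-luc cells, against 0.740, 0.737 and 0.833 in sh-IUR-5 cells. Neither ratio overlapped between groups, which follows from members that were separated in opposite directions. Ratios of members of unlike length and GC content, such as these, still hold the trends with length and GC described below. IFITM1 and IFITM3, which are close in length and GC content, also changed relative to each other. Their ratio was 4.63, 4.46 and 4.44 in sh-luc and 5.44, 5.40 and 5.42 in sh-IUR-5. These genes share a run of 141 identical bases, so their ratio also depends on how shared reads were counted, which is not known. ADAR against EIF2AK2 went from 1.65, 1.79 and 1.98 to 2.95, 2.36 and 2.33. The exact two-sided permutation test gives 0.1 for any ratio whose groups do not overlap, and these pairs were chosen after the values were seen.

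**Figure D2:**
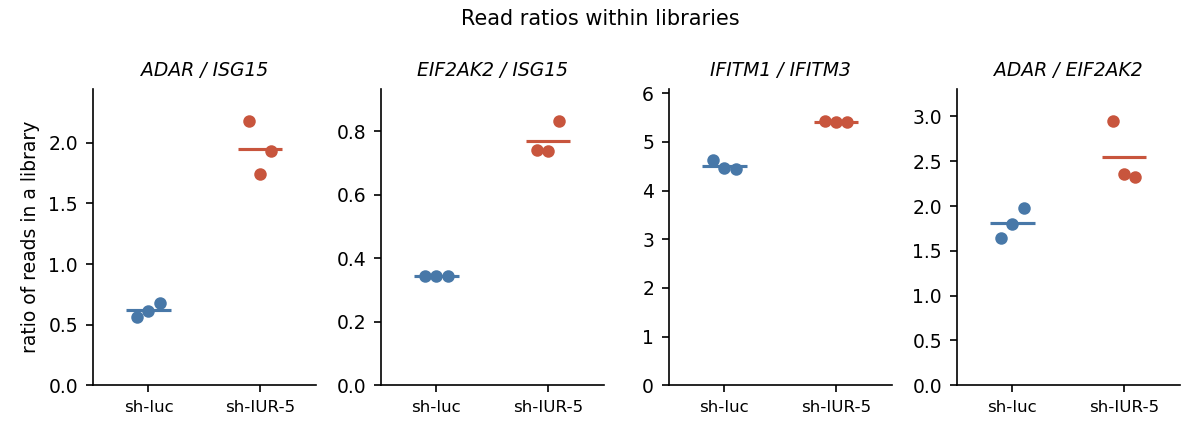
Ratio of the reads of 1 member to those of another in the same library, on linear axes from 0; points are libraries and bars are group means (n = 3). In all 4 panels the 3 sh-IUR-5 libraries lie above the 3 sh-luc libraries, from 1.74 to 2.18 against 0.566 to 0.680 for ADAR to ISG15.

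The fold changes of the whole table varied with coding length. The median log2 fold change rose with coding length, from -0.30 for the 964 genes under 500 bases to 0.24 for the 1305 genes of 3000 bases or more. Among genes under 500 bases 47.8% were called lower and 7.16% higher, and among those of 3000 bases or more 10.7% were called lower and 47.0% higher. Across genes, which are not independent replicates, Spearman's rho of the fold change was 0.33 with coding length and -0.26 with GC content. All 5 effectors have coding sequences of 378 to 498 bases with 57.2% to 65.9% GC, and the 4 sensors and enzymes have 1656 to 3699 bases with 37.8% to 51.2% GC. Set against the median of their own length class, ADAR was 0.50 higher on the log2 scale, ISG15 0.62 lower (-0.62), IFI6 0.66 lower (-0.66) and IFITM3 0.28 lower (-0.28), while IFITM1 (-0.02) and IFITM2 (-0.05) were near it. EIF2AK2 was 0.21 above its class, RIGI 0.09 above, IRF9 at -0.11 and IFIH1 at -0.25. The 7 called members and RIGI had the sign of the median of their length class, and IFIH1 and IRF9 had the opposite sign.

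**Figure D3:**
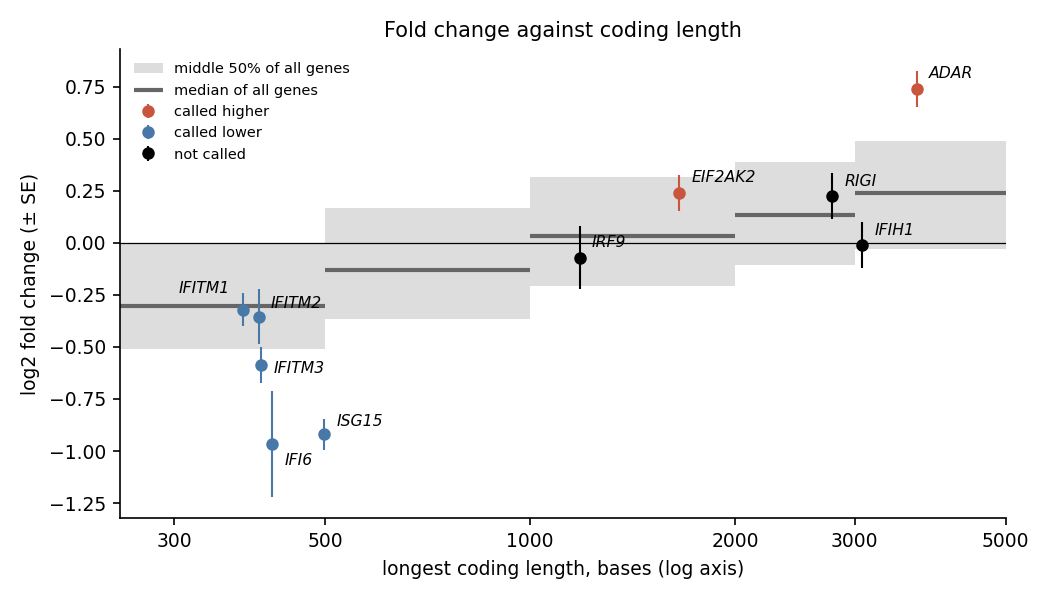
Log2 fold change of sh-IUR-5 against sh-luc (points, ± SE) against the longest coding length of each member on a log axis; the grey bands run from the lower to the upper quartile of all genes in 5 length classes and the bars are their medians, with the outer classes drawn to the edges of the plot. ADAR lies above the band of its class and ISG15, IFI6 and IFITM3 lie below theirs, while IFITM1, IFITM2, EIF2AK2, RIGI, IFIH1 and IRF9 lie inside.

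When each library's smooth trends with coding length and GC content were removed, an alternative added after the data were seen, ADAR kept a log2 fold change of 0.51 (edgeR adjusted p = 0.000397), ISG15 of -0.61 (edgeR adjusted p = 0.000213) and IFITM3 of -0.27 (edgeR adjusted p = 0.0263). IFI6 was at -0.62 (edgeR adjusted p = 0.0614). EIF2AK2 (0.08), IFITM1 (-0.03) and IFITM2 (-0.04) were no longer called, with edgeR adjusted p of 0.404, 0.800 and 0.834. IFIH1 was at -0.30 and called lower (edgeR adjusted p = 0.0356). Whether the trend came from the cells, the RNA or the library preparation was not tested. In bulk RNA, fewer cells with a transcript and less of it per cell cannot be told apart.

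**Figure D4:**
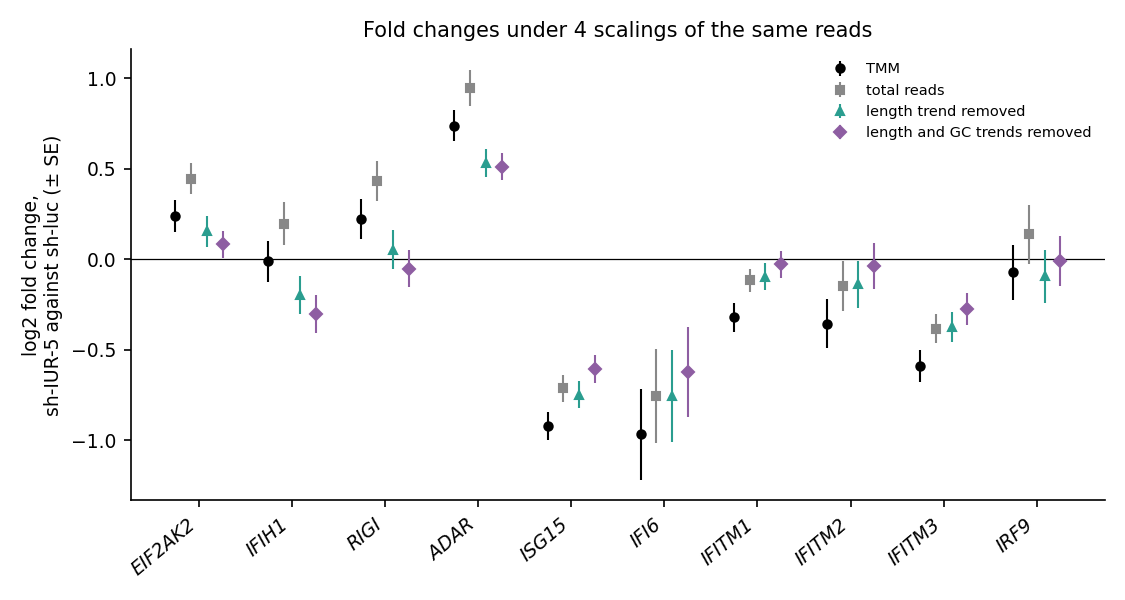
Log2 fold change of each member (± SE) under TMM scaling, total reads, removal of the length trend, and removal of the length and GC trends. ADAR and EIF2AK2 stay above 0 and the 5 effectors below it under all 4, while IFIH1, RIGI and IRF9 change sign.

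Of the other genes around the sensors, 95 in 6 lists were tested, of which 29 (30.5%) were called higher and 13 (13.7%) lower, against 24.9% and 22.9% of all genes tested. After removal of the length and GC trends 17 of the 29 and 11 of the 13 were still called in the same direction, and 11 other genes of the lists were called. The median log2 fold change of all genes tested was 0.01, against 0.22 with total reads in place of TMM and -0.02 with both trends removed. Each list is described by its counts and median, and the named genes are those with the largest changes past the threshold.

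Among other sensors and proteins that bind double-stranded RNA, 5 of 14 were higher and 3 lower, with a median of 0.18 (0.39 with total reads and -0.005 with both trends removed). TRIM25, a ubiquitin ligase that acts on the RIGI pathway, rose by 0.69 on the log2 scale (edgeR adjusted p = 0.000306), with 235 to 261 reads in sh-luc and 457 to 768 in sh-IUR-5 libraries. ZC3HAV1 (ZAP), which binds CpG-rich viral RNA, rose by 0.58 (edgeR adjusted p = 0.00172) and STAU1, which binds double-stranded RNA in mRNA decay, by 0.44 (edgeR adjusted p = 0.000394). RNF135, another ligase of RIGI, fell by 0.68 (edgeR adjusted p = 0.00418), ADARB1, the second catalytic editing enzyme, by 0.62 (edgeR adjusted p = 0.000392) and TARBP2, a partner of Dicer, by 0.26 (edgeR adjusted p = 0.0177), a call that was lost with the trends removed (-0.15, edgeR adjusted p = 0.0849). ADAR and ADARB1 thus went in opposite directions, ADARB1 with 316 to 414 reads in sh-luc and 286 to 416 in sh-IUR-5 libraries. TLR3, OAS1, OAS2, OASL and ZBP1 had 0 reads in every library, as had 21.0% of all genes in the table, and a count of 0 allows up to 3 reads a library, or 0.095 to 0.143 RPKM for a coding length of 1 kilobase.

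Of the adaptors and kinases that carry the sensor signal, 4 of 17 were higher and 1 lower, with a median of 0.06 (0.26 with total reads and -0.04 with both trends removed). CHUK (IKK alpha) rose by 0.70 (edgeR adjusted p = 0.000226), TBK1, the kinase of IRF3, by 0.45 (edgeR adjusted p = 0.00173) and TRAF6 by 0.44 (edgeR adjusted p = 0.0223), which was not called with the trends removed (0.26, edgeR adjusted p = 0.131). IRF3, the transcription factor that TBK1 activates, fell by 0.58 (edgeR adjusted p = 6.94e-05), from 65.1 ± 1.29 to 50.4 ± 2.98 RPKM (SD, n = 3). MAVS, the adaptor of RIGI and IFIH1, was at 0.25 and did not pass (edgeR adjusted p = 0.0969), but was called higher with both trends removed (0.29, edgeR adjusted p = 0.0238). CGAS, the DNA sensor, had at most 6 reads a library.

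The interferons themselves were almost without reads. Of the 21 that have an accession, 19 (the alpha genes, IFNB1 and IFNG among them) had 0 reads in all 6 libraries, and IFNK and IFNL3 had 23 and 3 reads in all. Of 12 tested genes of the interferon receptors and their JAK-STAT pathway, 6 were higher and 6 were not called, with a median of 0.26 (0.47 with total reads and 0.10 with both trends removed, where 3 were higher and 1 lower). JAK1 rose by 0.89 (edgeR adjusted p = 1.62e-05), from 7.496 ± 0.407 to 16.1 ± 1.19 RPKM (SD, n = 3), JAK2 by 0.65 (edgeR adjusted p = 5.69e-05) and IRF2, a repressor of interferon-induced genes, by 0.43 (edgeR adjusted p = 0.0187). JAK1, JAK2 and IRF2 were still called after removal of the trends, at 0.62, 0.38 and 0.39, and the receptor chains IFNAR1 and IFNGR1 were not.

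Of 36 other interferon-induced genes tested, 7 were higher, 7 lower and 22 not called, with a median of 0.01, as for all genes tested (0.22 with total reads and -0.03 with both trends removed). TMEM140 rose by 1.17 (edgeR adjusted p = 0.000701), with 23 to 27 reads in sh-luc and 63 to 105 in sh-IUR-5 libraries. CMPK2, a mitochondrial nucleotide kinase, rose by 0.72 (edgeR adjusted p = 0.000174) and SAMHD1, which depletes nucleotides against retroviruses, by 0.64 (edgeR adjusted p = 0.00291). IFI27L1 fell by 0.80 (edgeR adjusted p = 0.000107), TRIM5, a capsid-binding restriction factor, by 0.76 (edgeR adjusted p = 1.76e-05) and IFI35 by 0.70 (edgeR adjusted p = 0.000545). IFIT5, IFI44, IFI44L, MX2 and XAF1 had 0 reads in every library and MX1 had 13 reads in all. IFIT1, which binds viral RNA, was at 0.32 and did not pass (edgeR adjusted p = 0.241).

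Around ISG15 conjugation 3 genes could be tested. ARIH1 rose by 0.54 (edgeR adjusted p = 0.00234), while UBE2L6, the conjugating enzyme, was at 0.07 and USP18, which removes ISG15, at -0.03, and neither passed. The activating enzyme UBA7 had 8 reads in all and the ligase HERC5 none. Around PKR, 6 of 13 genes of eIF2 phosphorylation were higher and 2 lower, with a median of 0.12 (0.33 with total reads and -0.07 with both trends removed). The phosphatase subunits PPP1CB and PPP1R15B rose by 0.87 (edgeR adjusted p = 3.38e-05) and 0.69 (edgeR adjusted p = 0.000445), and EIF2AK3 (PERK), the eIF2 kinase of the endoplasmic reticulum, by 0.64 (edgeR adjusted p = 0.00371), which was not called with the trends removed (0.34, edgeR adjusted p = 0.0516). EIF2S2, the beta subunit of eIF2, fell by 0.50 (edgeR adjusted p = 0.000585) and PPP1CA by 0.32 (edgeR adjusted p = 0.00241). EIF2S1, the subunit that PKR phosphorylates, was at 0.03 and did not pass (edgeR adjusted p = 0.875).

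**Figure D5:**
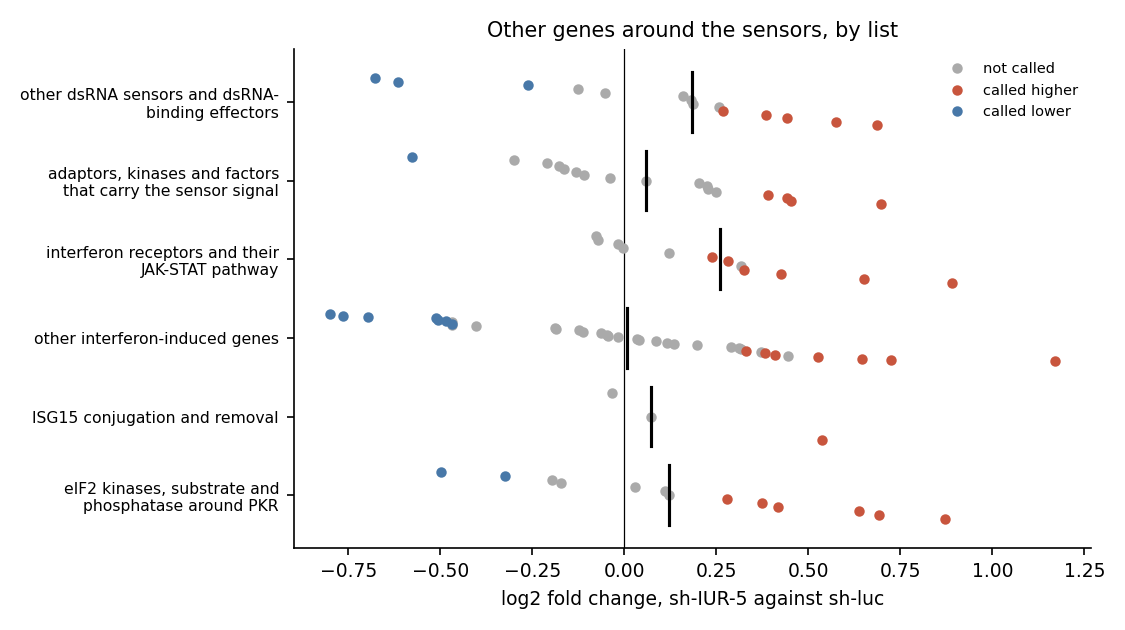
Log2 fold change of every tested gene of 6 lists around the members, coloured by the call at an adjusted p of 0.05, with a vertical bar at the median of each list. The receptor and JAK-STAT list has 6 genes called higher and 6 not called, and the other interferon-induced genes have 7 on each side.

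The erythroid leukaemia markers fixed for K562 were all present, with HBG1 at 8070 ± 516 and HBG2 at 11560 ± 719 RPKM in sh-luc cells (SD, n = 3). They also changed alongside the members. Of the 10, 5 were lower in sh-IUR-5 cells, namely the globins HBZ (log2 fold change -0.89), HBE1 (-0.70), HBG1 (-0.57) and HBG2 (-0.54) and the erythroid transcription factor GATA1 (-0.36), while TFRC (1.11) and TAL1 (0.71) were higher. The edgeR adjusted p of these 7 was at most 0.0107, and all 7 were still called with both trends removed. The part of these changes in the members' values was not tested. Of 11 markers of other blood cells and stroma, 1 (EPCAM, 1780 to 2710 reads) reached the minimum level, and it did not pass the test (log2 fold change -0.02, edgeR adjusted p = 0.873). Of the reference genes, ACTB was at 0.01 (edgeR adjusted p = 0.917) and GAPDH at -0.19 (edgeR adjusted p = 0.0298), and GAPDH was at 0.01 with total reads in place of TMM.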

How the data were processed

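RNA-seq was done on 3 sh-IUR-5 and 3 sh-luc libraries of K562 cells. The authors trimmed and masked the reads and mapped them to hg38, and the submitters' processing notes name CASAVA 1.8, Trimmomatic 0.32, Bowtie2 2.1.0 and SAMtools 0.1.19. The authors deposited counts of reads on each RefSeq protein accession, and RPKM values, which were checked to be reads over coding length and library total. Rows of equal length of the same gene differed by about the sampling noise, so the reads of a gene's accessions were summed. Symbols matched 64.7% of accessions, which hold 84.4% of the reads. The authors' deposited comparison table, with pooled values, ratios, fold changes and p-values, was not used. Genes with a mean of at least 1 RPKM were tested with edgeR 4.0.16 (R 4.3.3, TMM scaling, quasi-likelihood test, two-sided, Benjamini-Hochberg over 10390 genes, threshold 0.05), after the test was tried on simulated data. Alternatives were DESeq2 1.42.0, limma 3.58.1 on log2(RPKM + 0.1 or + 1), total reads, other minimum levels, a replicate block, a label series term, libraries left out or summed, single accessions, and trends with length and GC removed (mgcv 1.9.3). Intervals are 95% from the fitted SE. Named genes are the 10 members, ACTB and GAPDH, and from each list up to 3 that rose and 3 that fell most past the threshold in all same-numbered pairs; genes at or near 0 reads and IFIT1, MAVS, EIF2S1, UBE2L6, USP18, IFNAR1, IFNGR1 and the K562 markers were named after their values were seen. The results of 2 genes are not reported here. Members and lists were chosen with earlier results of these data known. P-values measure the spread between these libraries.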

Additional observations from a re-analysis of the deposited data

How the results depend on the processing

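ADAR, ISG15 and IFITM3 kept direction and call under all 21 alternatives, IFI6 in 18 of 20, IFITM1 in 15, EIF2AK2 in 11 and IFITM2 in 5 of 21. Members called higher numbered 1 in place of 2 with DESeq2, with libraries 2 and 3 of each group summed, with 1 accession a gene, and after removal of the length trend or of the length and GC trends (also with the replicate block), 1 to 3 with a library left out, and 3, with RIGI, with total reads, limma with either pseudocount and the label series term. Members called lower numbered 3 in place of 5 with total reads, limma with either pseudocount, a minimum of 5 RPKM (which leaves out IFI6 and IFIH1), 1 accession a gene, removal of the length trend, and removal of both trends (where IFIH1 is among the 3), and 4 to 5 with a library left out. They numbered 4 with DESeq2, no minimum RPKM and summed libraries. Removal of both trends with the replicate block also gave 4, with IFIH1 among them. Not called and changed in sign were IFIH1 with total reads (0.20), limma (0.18 and 0.14), summed libraries (0.007), 1 accession a gene (0.025) and a library left out (-0.054 to 0.045), IRF9 with total reads (0.14), limma (0.12 and 0.10) and a library left out (-0.233 to 0.006), and RIGI with both trends removed (-0.051, and -0.051 with the replicate block). Genes called over the table numbered 4965, of which 52.0% were higher, and 79.7% of 5478 were higher with total reads, where the median log2 fold change was 0.22 and not 0.01. Keeping accessions with no symbol as features gave 8950 calls among 22162. The replicate block gave 5953 calls, and 2 members higher and 5 lower. Deviations of same-numbered libraries correlated at 0.45, 0.16 and 0.003 over genes, so the numbers do not pair the libraries throughout. Library 2 of sh-luc with library 3 of sh-IUR-5 gave 0.345, and library 3 with library 2 gave 0.191. Library 1 of either group with libraries 2 and 3 of the other gave -0.375 to -0.136. That is the grouping of the series number in the labels, for which the main fit held no term. The cause of these differences was not tested. At 27 to 71 reads IFI6 is the member that depth limits most.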
